A study of Homo sapiens with 6 samples.

Results

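This account describes the core and linker histone genes of MDA-MB-231, a human cell line grown from a triple-negative breast cancer, after exposure to selamectin. Histones H2A, H2B, H3 and H4 form the octamer that DNA wraps around, and histone H1 binds the linker DNA between octamers. Most histone genes are replication-dependent: they lack introns, are transcribed mainly in S phase, and their mRNAs end in a stem-loop in place of a poly(A) tail. Variant histones such as H2A.Z, H3.3 and macroH2A come mostly from polyadenylated mRNAs made throughout the cell cycle and take over particular tasks in chromatin.

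The cells received 1 µM selamectin for 24 h, or served as controls, and 3 cultures per group were profiled on Affymetrix whole-transcript arrays. Control arrays are titled untreated, whereas the protocol text and the design text name a vehicle. They are called untreated here after their titles, and may have received vehicle. Selamectin is a veterinary antiparasitic of the avermectin family. The series title frames it as an inhibitor of the SIN3 corepressor, which brings histone deacetylases to promoters. The groups are samples of 1 cell line under 1 dose and 1 time. Markers fixed for the line were at log2 values between 9.62 and 13.75 (6 markers, means over all arrays), while CDH1, ESR1, PGR, EPCAM and ERBB2, which a mesenchymal triple-negative line should carry at low levels, were at 5.67 to 9.12. The markers of leukocytes, endothelium and fibroblasts were at 4.83 to 9.23 (11 markers, the highest being CDH5, an endothelial cadherin). No detection calls were used, so none of these can be called absent.

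The members are all genes whose symbol names a histone under a fixed set of prefixes and variant names and whose transcript cluster, the probe group designed for 1 locus, carries that symbol alone. This gave 67 genes of 18417 on the arrays: 57 replication-dependent genes and 10 variants. The replication-dependent genes comprised 6 of linker histone H1, 14 of H2A, 16 of H2B, 8 of H3 and 13 of H4. Of them, 49 lie on chromosome 6, 7 on chromosome 1 and 1 on chromosome 12. A further 14 histone genes lie only on clusters with several symbols, H3-3A among them, and have no value of their own here. Clusters of that kind are summarized at the end. H4C14 and H4C15 each have a cluster, but the values were identical on every array and so amount to a single measurement. Histone genes of a family are close in sequence, so the probes of a cluster may bind transcripts of relatives, and each gene's value is uncertain for that reason. Signals of different clusters depend on their probes and are not ranked against each other.

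Few histone genes changed past the test's threshold after selamectin, as was the case over all genes. Of the 67 members, 2 rose past an adjusted p of 0.05 in limma and 0 fell, while 2.41% of all genes tested rose and 2.28% fell. The 2 were H2AC15 and H2BC14, both replication-dependent genes of chromosome 6. At an unadjusted p under 0.05 in limma, 4 members were higher and 1 was lower, which compares with 11.7% and 8.21% of all genes. None of the 10 variants passed the adjusted threshold in limma, and 1 of them, H2AX, had an unadjusted p under 0.05.

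The size of the changes was small in both classes. The median log2 change was 0.02 for the replication-dependent genes and 0.08 for the variants, beside 0.04 for all genes. Changes of less than 0.2 log2 units were found for 51 of the 57 replication-dependent genes (89.5%) and 9 of the 10 variants, against 76.9% of all genes. The 95% interval of the change lay within 1.5-fold in either direction for 52 replication-dependent genes and for all 10 variants. The same held for 16868 of all 18417 genes, so this count does not set the replication-dependent genes apart. Values from arrays are compressed for dim genes, and 12 of the 57 replication-dependent genes lay below the 25th percentile of the means of all genes.

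**Figure D1:**
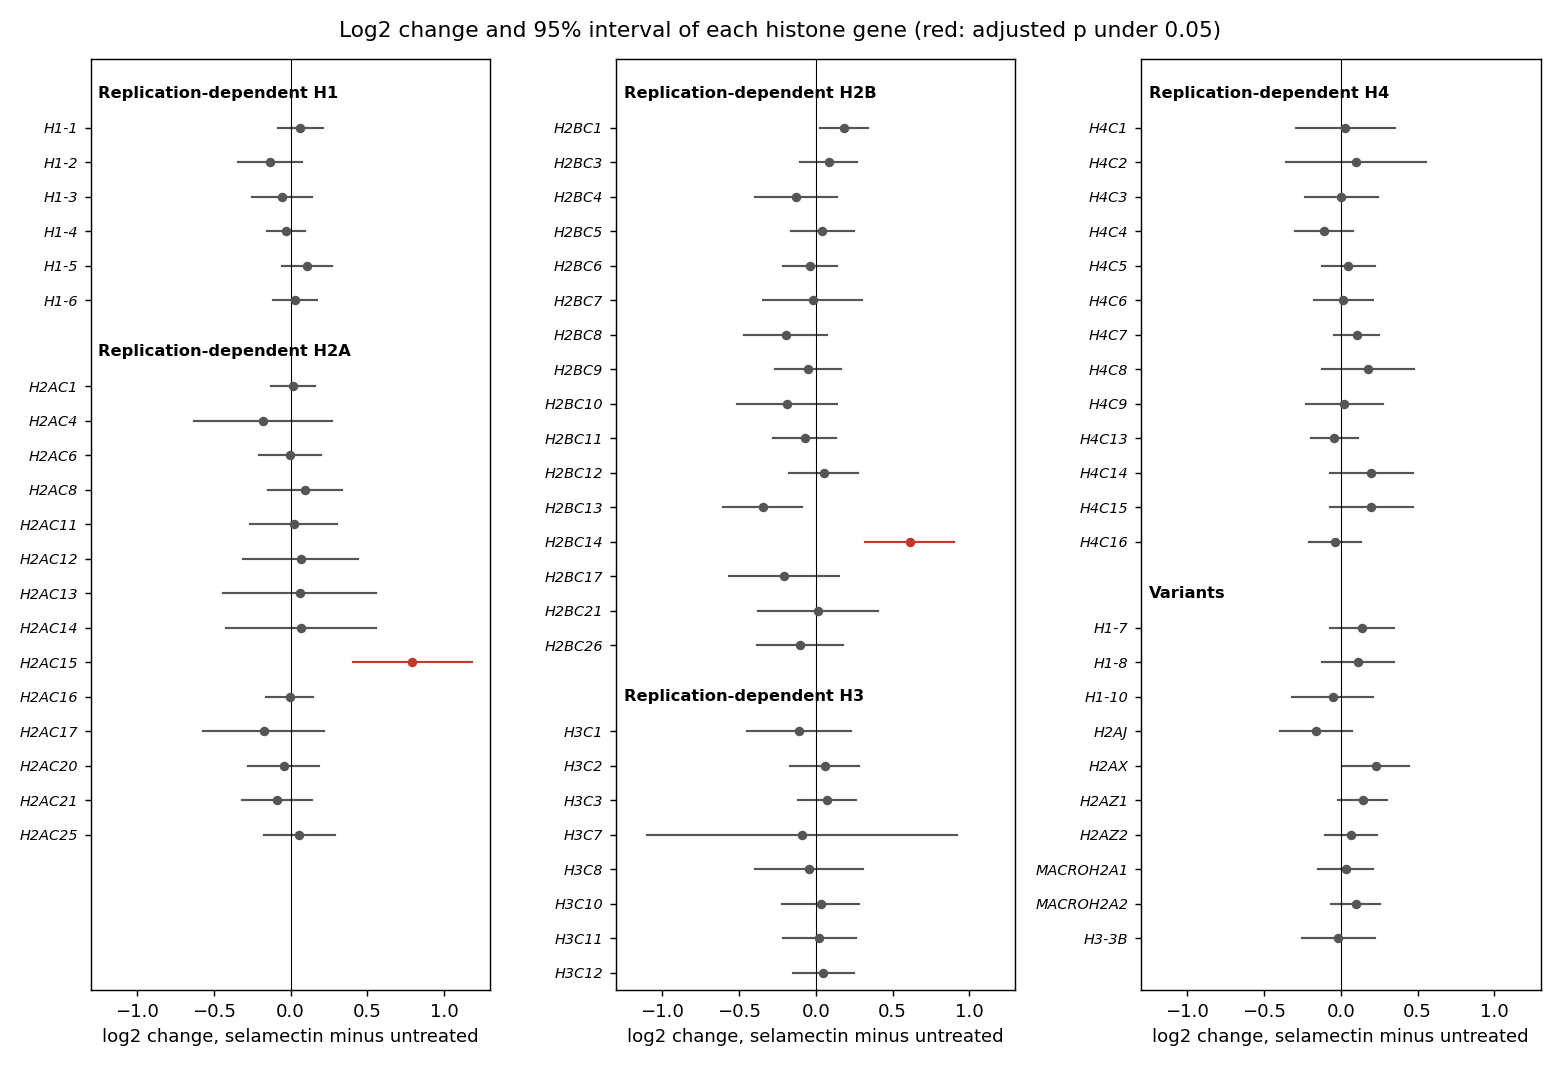
Log2 change, selamectin minus untreated (horizontal axis), with its 95% interval for each of the 67 histone genes, grouped by family; red marks an adjusted p under 0.05. H2AC15 and H2BC14 stand to the right of 0, and H3C7 has the widest interval, from -1.10 to 0.92.

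The H2A genes held the larger of the 2 rises. H2AC15 encodes a replication-dependent H2A. Its log2 values were 10.37, 11.05 and 11.12 on the selamectin arrays, against 9.91, 10.24 and 10.01 on the untreated arrays. All selamectin values lay above all untreated values, and selamectin array 1 stood apart from the other selamectin arrays, close to the highest untreated one. The change was 0.79 log2 units, or 1.73-fold, with a standard error of 0.18 and a limma adjusted p of 0.030. The call was lost without selamectin array 2 (limma adjusted p = 0.121), untreated array 1 (0.134) or untreated array 3 (0.104), and when all 33297 clusters entered the fit (0.125), where 0.312% of clusters rose and 0.435% fell.

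H2BC14, a replication-dependent H2B gene, had log2 values of 10.69, 11.10 and 10.88 on the selamectin arrays, against 10.04, 10.33 and 10.47 on the untreated arrays. Here too the groups did not overlap. The change was 0.61 log2 units, or 1.53-fold, with a standard error of 0.13 and a limma adjusted p of 0.027. The call was lost without selamectin array 2 (limma adjusted p = 0.113), untreated array 1 (0.109) or untreated array 2 (0.0564), and with all clusters in the fit (0.108). Groups that do not overlap were found for 7 of the 67 members, 6 with selamectin above and 1 with selamectin below. The shares over all genes were 16.0% and 9.3%.

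The 1 member with all selamectin arrays below all untreated arrays was H2BC13, an H2B gene a short way along the same run of histone genes on chromosome 6. Its log2 values were 8.01, 8.26 and 8.04 with selamectin, against 8.29, 8.66 and 8.40 untreated. The gap between the groups was narrow, since selamectin array 2 came within reach of untreated array 1. The change was -0.35 (95% interval -0.60 to -0.09) and did not pass in limma (adjusted p = 0.124). With array weights it passed (adjusted p = 0.0408), in a fit where untreated array 3 had a weight of 5.11 and the other arrays between 0.45 and 1.22, and which called 7.95% of all genes lower.

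**Figure D2:**
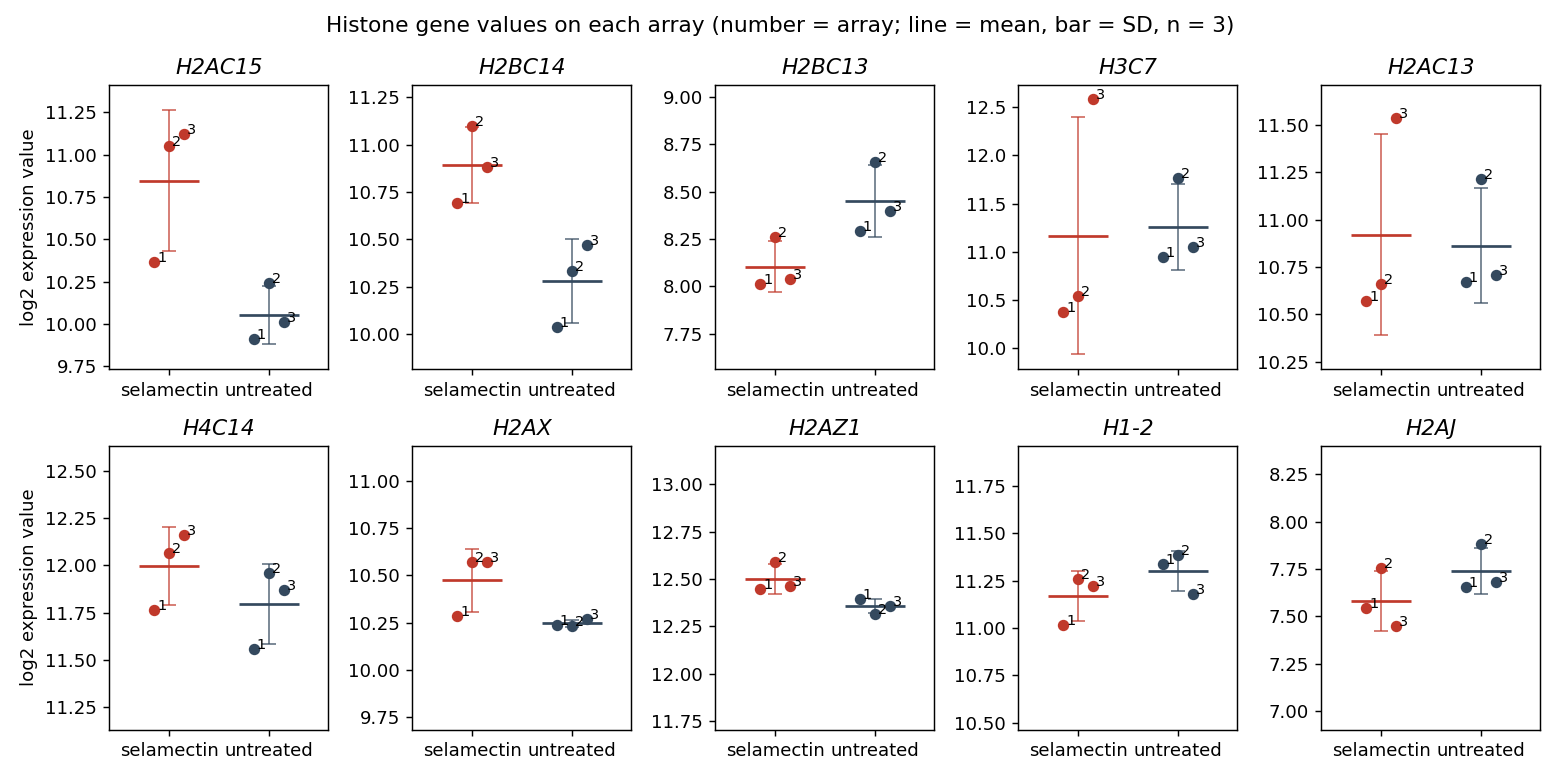
Log2 expression values (vertical axis, a separate range for each gene) of 10 histone genes on each array; dots are arrays with their number, lines are means and bars are SD (n = 3). H2AC15 and H2BC14 show all selamectin arrays above all untreated arrays, whereas the wide selamectin bars of H3C7 and H2AC13 come from selamectin array 3.

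The promoters of these 3 genes, which were picked for their changes, are printed as a description. Whether the sequence bears on the changes was not tested. Each covers 250 bases before to 50 after the start of the gene, 5′ to 3′ on the gene's strand, from RefSeq (GRCh38.p14). Capitals mark the octamer element ATTTGCAT, the TATA box TATAAA and the CCAAT box, each searched on both strands with no overlap between them in these windows. They are H2AC15 at chr6:27838326-27838625 on the minus strand, H2BC14 at chr6:27814772-27815071 on the plus strand and H2BC13 at chr6:27807880-27808179 on the minus strand.
H2AC15: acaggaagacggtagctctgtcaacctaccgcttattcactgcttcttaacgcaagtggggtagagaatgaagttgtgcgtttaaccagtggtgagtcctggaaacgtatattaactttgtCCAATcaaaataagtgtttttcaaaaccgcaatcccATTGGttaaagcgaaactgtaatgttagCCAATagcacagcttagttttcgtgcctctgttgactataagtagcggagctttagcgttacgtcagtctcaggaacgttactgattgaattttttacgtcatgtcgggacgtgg
H2BC14: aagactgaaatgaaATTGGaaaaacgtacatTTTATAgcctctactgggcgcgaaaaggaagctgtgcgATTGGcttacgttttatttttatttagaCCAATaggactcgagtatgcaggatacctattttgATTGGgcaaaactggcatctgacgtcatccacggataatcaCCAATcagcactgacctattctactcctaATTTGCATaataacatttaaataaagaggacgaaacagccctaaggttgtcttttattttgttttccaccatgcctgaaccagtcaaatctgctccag
H2BC13: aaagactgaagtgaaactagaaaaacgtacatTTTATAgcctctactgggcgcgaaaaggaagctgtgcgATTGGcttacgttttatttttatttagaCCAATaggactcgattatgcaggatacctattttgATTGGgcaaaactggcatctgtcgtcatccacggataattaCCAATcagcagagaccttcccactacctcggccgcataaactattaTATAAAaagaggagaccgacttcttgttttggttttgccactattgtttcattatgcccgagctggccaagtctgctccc

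The promoters of H2BC14, whose mRNA rose, and of H2BC13, whose values were lower without passing, are nearly the same over their upstream part. In the stretch from 250 to 81 bases before the start of H2BC14, 165 of 170 aligned bases were identical (97.1%). The far end of each window reaches into an H2A gene, so this stretch does not belong to the H2B genes alone. These H2A genes are H2AC14 (chr6:27814302-27814777) for H2BC14 and H2AC13 (chr6:27808173-27808667) for H2BC13. H2AC14 changed by 0.07 and H2AC13 by 0.06. The H2B promoters part ways closer to the start. H2BC14 holds the octamer element, which begins 48 bases before the start, and no TATAAA near it. H2BC13 holds a TATAAA that begins 30 bases before the start and no match to the octamer letters. The H2AC15 window held 3 CCAAT boxes and neither of the other motifs.

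The motifs were spread unevenly over the families of replication-dependent genes. Promoter windows were found for 62 of the 67 members. The octamer, which binds POU-domain factors and is known from H2B promoters, was present in 13 of 16 H2B windows and 10 of 13 H2A windows, and in 1.8% of all 27305 windows of the table. None of the windows of the H1 (6), H3 (6) and H4 (11) genes held it. Some H2A and H2B genes, such as H2AC14 and H2BC14, lie so close together that their windows can overlap. A single octamer can then be counted in both families, so the H2A and H2B counts are not independent. CCAAT was in 84.6% of the replication-dependent windows, 70.0% of the variant windows and 35.7% of all windows, and TATAAA in 65.4%, 40.0% and 12%. By family, CCAAT was in every H1, H2A, H2B and H3 window but in only 3 of the 11 H4 windows (27.3%), below its share of all windows. The H2B genes with the octamer had log2 changes from -0.20 to 0.61 (median -0.04), and the 3 without it from -0.35 to 0.04. The H2A genes with it changed by -0.18 to 0.09, and the 3 without it by 0.06 to 0.79. A match of letters is a description of the window and not a site.

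Both called genes lie in the same part of the chromosome 6 histone cluster. Its members were split into 3 runs wherever neighbouring members started further apart than a distance chosen for this description. The first run held 31 measured genes with log2 changes between -0.19 and 0.18, and the second held 5 with changes between -0.07 and 0.07. The third run, from H2BC13 to H2BC17, held 13 genes with changes between -0.35 and 0.79, and so held the lowest and the highest change of all members. Only 2 protein-coding genes separate H2BC14 from H2AC15, the H4 genes H4C11 and H4C12, which lie only on clusters with several symbols. The 24 clusters of that kind with a histone symbol held no call, with log2 changes from -0.27 to 0.07. The next measured neighbours on either side did not pass: H2AC14 changed by 0.07 and H2AC16 by -0.01.

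**Figure D3:**
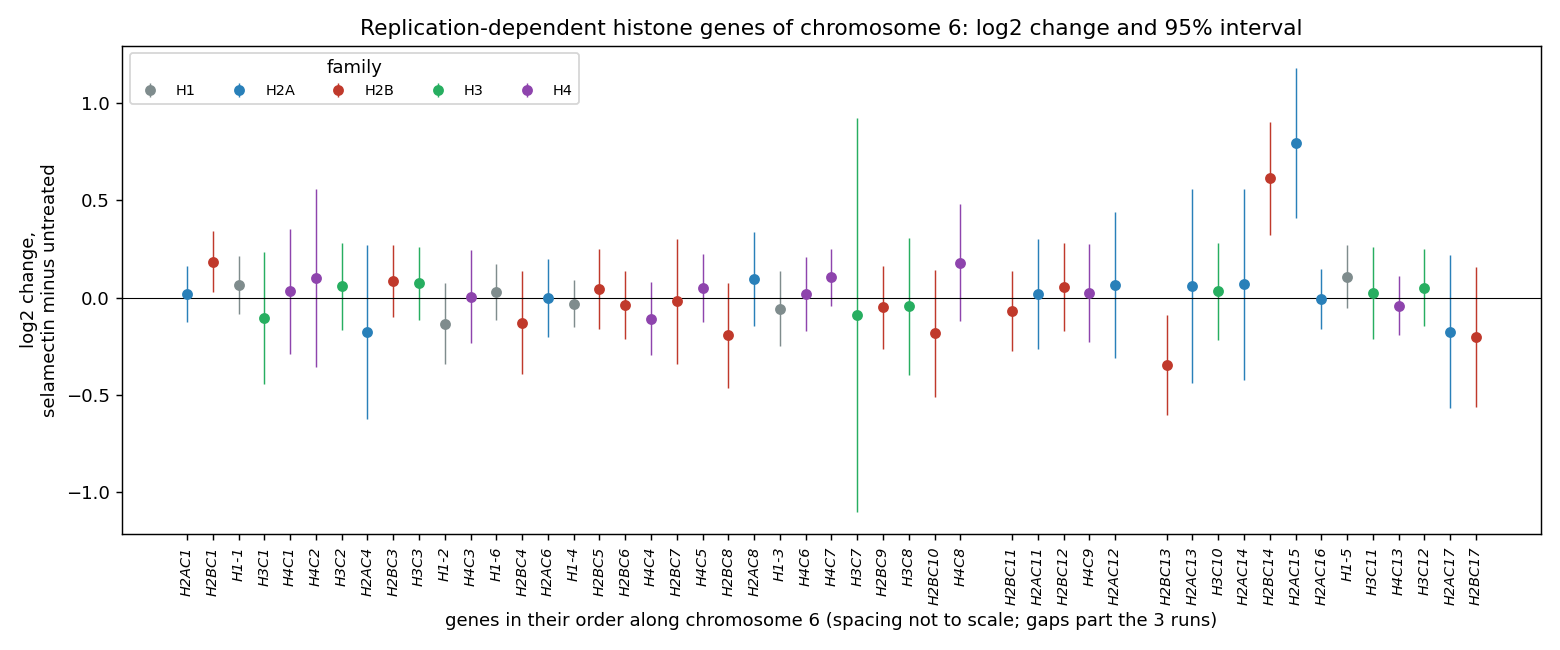
Log2 change, selamectin minus untreated, with 95% intervals (vertical axis) for the 49 replication-dependent genes of chromosome 6 in their order along the chromosome, coloured by family; wider spaces part the 3 runs. The lowest point, H2BC13 at -0.35, and the 2 highest, H2BC14 at 0.61 and H2AC15 at 0.79, all lie in the third run.

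The other H2A and H2B genes differed little between the groups. Of the 14 H2A genes, 8 had a positive change and 6 a negative one, with a median of 0.02. H2AC21 had log2 values of 12.21, 12.53 and 12.64 with selamectin, against 12.53, 12.63 and 12.49 untreated, which overlap, and a change of -0.09 (limma adjusted p = 0.67). H2AC17 changed by -0.17 (limma adjusted p = 0.63), with untreated values that ran from 8.22 to 9.12. Of the 16 H2B genes, 6 had a positive and 10 a negative change, with a median of -0.04. H2BC9 had 12.68, 12.81 and 13.03 with selamectin, against 12.78, 13.02 and 12.87 untreated, and its change was -0.05. H2BC1, the testis H2B gene, had an unadjusted limma p of 0.026 and a change of 0.18 that did not pass (adjusted p = 0.18), at dim values between 5.32 and 5.65.

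None of the 8 H3 genes or 13 H4 genes passed in limma, and none had an unadjusted p under 0.05. H3C2 had log2 values of 12.79, 13.02 and 13.20 with selamectin, against 12.82, 13.01 and 13.02 untreated, so that selamectin array 3 alone stood clearly above the untreated range. H3C3 changed by 0.07 and H3C1 by -0.11, and both had limma adjusted p-values over 0.05, at 0.67 and 0.74. Among the H4 genes H4C14 and H4C15, whose clusters had identical values, had the smallest p. Their values were 11.77, 12.06 and 12.16 with selamectin, against 11.56, 11.96 and 11.87 untreated. The change of 0.20 did not pass (95% interval -0.07 to 0.47, limma adjusted p = 0.40). H4C3 had means of 13.25 ± 0.26 with selamectin and 13.25 ± 0.07 untreated (SD, n = 3 each), and its change was 0.004. The median over the families was 0.03 for H3 and 0.03 for H4.

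The linker histones of the replication-dependent class were likewise without a call. H1-4 had log2 values of 14.20, 14.17 and 14.26 with selamectin, against 14.19, 14.28 and 14.26 untreated, a change of -0.03 with a 95% interval from -0.15 to 0.09. H1-2 had 11.02, 11.26 and 11.23 with selamectin, against 11.34, 11.39 and 11.18 untreated, and the groups overlapped (change -0.13, limma adjusted p = 0.47). H1-5 was dim, at 5.83 to 6.03 over all arrays, and changed by 0.11 (limma adjusted p = 0.46). The 6 H1 genes spanned -0.13 to 0.11, with 3 on either side of 0.

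Variant histones had small changes, none of which passed the test. Of the 10, 7 had a positive change and 3 a negative one, where 11597 of 18417 genes had a positive change. H2AX, the variant whose phosphorylated form marks DNA double-strand breaks, had log2 values of 10.28, 10.57 and 10.57 with selamectin, against 10.24, 10.23 and 10.27 untreated. Selamectin array 1 came close to the untreated arrays and the other selamectin arrays lay clearly above them. The change was 0.23 (95% interval 0.01 to 0.45) and did not pass in limma (adjusted p = 0.23).

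H2AZ1 and H2AZ2 encode the 2 forms of H2A.Z, a variant enriched beside active promoters. H2AZ1 had 12.45, 12.59 and 12.47 with selamectin, against 12.39, 12.32 and 12.36 untreated, without overlap (change 0.14, limma adjusted p = 0.30). H2AZ2 had 11.77, 11.82 and 11.70 with selamectin, against 11.69, 11.63 and 11.76 untreated, and overlapped (change 0.07, adjusted p = 0.66). Neither passed the test.

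MACROH2A1 and MACROH2A2 encode the macroH2A histones, which carry a large additional domain and are linked to repressed chromatin. MACROH2A2 had 6.69, 6.73 and 6.71 with selamectin, against 6.59, 6.64 and 6.60 untreated, without overlap, and a change of 0.10 (limma adjusted p = 0.49). MACROH2A1 had means of 11.90 ± 0.10 with selamectin and 11.87 ± 0.06 untreated (SD, n = 3 each), a change of 0.03. H3-3B, 1 of the 2 genes of the replacement histone H3.3, changed by -0.02 (95% interval -0.25 to 0.22), with values that overlapped.

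H2AJ, a replication-independent H2A, had 7.54, 7.76 and 7.45 with selamectin, against 7.66, 7.88 and 7.68 untreated, which overlap, and a change of -0.16 (limma adjusted p = 0.45). The linker variant H1-10 had 9.65, 10.04 and 10.06 with selamectin, against 10.08, 9.88 and 9.96 untreated, a change of -0.05. H1-7 and H1-8, known from germ cells, changed by 0.14 and 0.11, with limma adjusted p-values of 0.46 and 0.59. None of these 4 passed the test.

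The class median of the replication-dependent genes varied more from array to array within a group than between the groups. Relative to each gene's untreated mean, their median deviation was -0.11, -0.01 and 0.13 on selamectin arrays 1, 2 and 3, against -0.05, 0.12 and -0.07 on untreated arrays 1, 2 and 3. Selamectin array 3 and untreated array 2 were thus both high, and selamectin array 1 was the lowest of all. The variants did not share this order, with medians of 0.08, 0.11 and 0.08 on the selamectin arrays and of -0.01, -0.03 and 0.01 on the untreated arrays. The median of all genes lay between -0.02 and 0.07 over the 6 arrays.

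**Figure D4:**
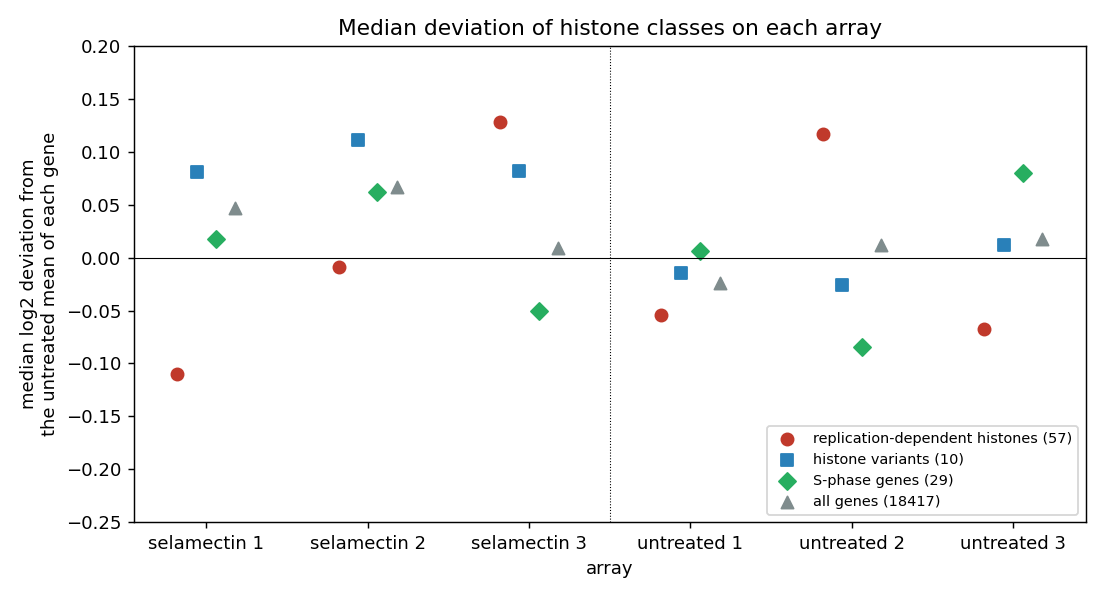
Median log2 deviation from the untreated mean of each gene (vertical axis) on each array for replication-dependent histone genes, variants, S-phase genes and all genes. The replication-dependent histones were high on selamectin array 3 (0.13) and untreated array 2 (0.12) and low on selamectin array 1 (-0.11).

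The high values on selamectin array 3 extended over most core histone genes. That array exceeded both other selamectin arrays for 40 of the 57 replication-dependent genes (70.2%) and 2 of the 10 variants, against 25.4% of all genes. By family the counts were 8 of 8 for H3, 11 of 14 for H2A, 11 of 16 for H2B and 9 of 13 for H4, but 1 of 6 for H1. Among the untreated arrays, array 2 was the highest for 45 of 57 replication-dependent genes (78.9%), 4 of 10 variants and 41.6% of all genes. Selamectin array 1 was the lowest of all 6 arrays for 26 of 57 (45.6%), against 8.24% of all genes. Neighbouring family members share sequence and so are not independent of each other, and these shares are descriptions.

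H3C7 was the extreme case, chosen after its values were seen. Its log2 values were 10.37, 10.54 and 12.58 on the selamectin arrays, against 10.95, 11.77 and 11.05 on the untreated arrays. Selamectin array 3 lay 2.12 log2 units above the mean of the other selamectin arrays, and the fitted change between groups was -0.09 (95% interval -1.10 to 0.92). Gaps of at least 0.5 log2 units were seen for 6 genes, with H2AC13 at 0.92, H2AC14 and H4C2 at 0.83 and H2AC4 at 0.77; H4C1 was the sixth. The opposite was seen for H2BC21, an H2B gene of chromosome 1, at 9.92, 9.83 and 9.11 on the selamectin arrays, against 9.49, 9.68 and 9.64 on the untreated arrays. The 2 called genes did not both follow this order, since H2BC14 was highest on selamectin array 2 and H2AC15 on array 3.

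**Figure D5:**
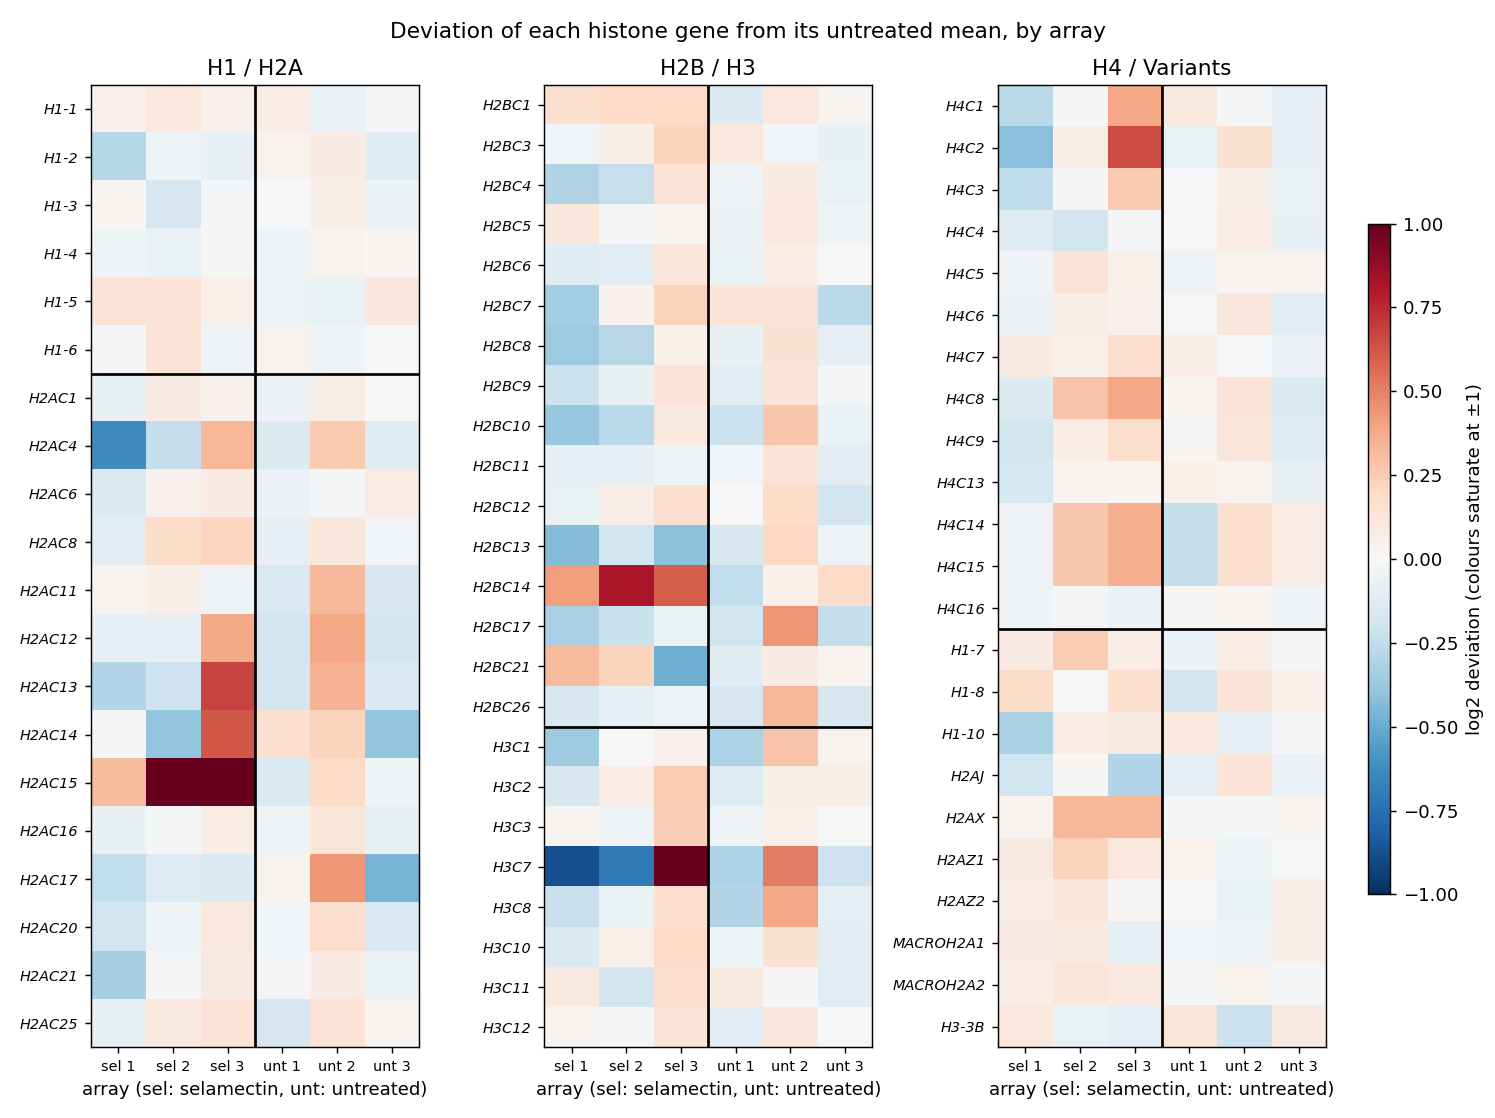
Log2 deviation of each of the 67 histone genes (rows) from its untreated mean on each array (columns, selamectin to the left of the black line); red is higher and blue lower, with colours saturating at 1 log2 unit. The selamectin array 3 and untreated array 2 columns are red for many core histone genes, while H2AC15 and H2BC14 are red in all 3 selamectin columns.

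The within-group spread was accordingly wider for the replication-dependent genes. Their median SD was 0.15 over the selamectin arrays and 0.12 over the untreated arrays, against 0.10 and 0.07 for the variants and 0.10 and 0.10 for all genes. Without selamectin array 3 their median change was -0.05, and without selamectin array 1 it was 0.06, so its sign is not settled. Genes of DNA replication and S phase did not share the order of the arrays. The median deviation of 29 such genes was 0.02, 0.06 and -0.05 on selamectin arrays 1, 2 and 3, against 0.01, -0.08 and 0.08 on the untreated arrays, lowest where the replication-dependent histones were high. Of these 29 genes 1 rose and 0 fell past the adjusted threshold in limma, beside 2.41% and 2.28% of all genes. The called gene was CDC6, a licensing factor of replication origins (0.33, limma adjusted p = 0.043). At an unadjusted limma p under 0.05, 5 were higher and 0 lower, beside 11.7% and 8.21% of all genes. Whether the share of cells in S phase or the amount of RNA per cell differed between cultures was not tested, and these cannot be told apart in bulk RNA.

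Among 48 measured genes for histone transcription, mRNA 3′ end formation, chaperoning and deposition, 2 rose and 0 fell past the adjusted threshold in limma, beside 2.41% and 2.28% of all genes. CSTF2, a cleavage stimulation factor that acts in polyadenylation and in histone mRNA 3′ end processing, had log2 values of 10.31, 10.20 and 10.19 with selamectin, against 9.76, 9.68 and 9.81 untreated. Its groups were well apart, and the change was 0.48 (limma adjusted p = 0.014). IPO4, an importin that carries H3 and H4 into the nucleus, had 11.12, 11.13 and 11.25 with selamectin, against 10.66, 10.81 and 10.79 untreated, also without overlap (change 0.41, limma adjusted p = 0.023). CSTF3, a partner of CSTF2 in the same complex, changed by 0.44 and HIRA, a chaperone of H3.3, by 0.31; neither passed (limma adjusted p of 0.098 and 0.11). At an unadjusted limma p under 0.05, 7 of the 48 were higher and 3 lower, beside 11.7% and 8.21% of all genes. Changes ran from -0.29 to 0.48, and the median over the 48 genes was 0.03, near that of all genes. E2F1, CCNE1 and CCNE2 are counted both in this list and among the S-phase genes.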

How the data were processed

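RNA of 6 MDA-MB-231 cultures, 3 with selamectin and 3 untreated by title, was measured on Affymetrix arrays, and replicates are independent per the design text. The authors deposited 1 value per transcript cluster, taken here as log2 values made by RMA; per the submitters' processing notes, Affymetrix Expression Console, RMA and Transcriptome Analysis Console were used, without versions. The log base and genome build are not given in the sources used here. Array medians lay between 7.47 and 7.51. Arrays have no depth, and their number limits precision (median standard error of a log2 change 0.094). Correlations across genes were 0.9949 to 0.9971 within and 0.9913 to 0.9954 between groups. Batches were not tested.

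Of 33297 clusters, 19460 had 1 symbol in the platform annotation, of which 19429 matched RefSeq by Entrez number with 0 symbols changed. The highest-mean cluster stood for each gene, giving 18417 genes. No filter was applied; all 67 members have a mean of at least 5. Antisense RNAs and the 2 histone pseudogenes H1-9P and H2BC19P were set apart (log2 changes 0.25 and 0.12, neither past the threshold). limma 3.58.1 in R 4.3.3 (lmFit, eBayes with trend, no block, two-sided) was fitted on all genes, with Benjamini-Hochberg adjustment over all of them. The fit was tested on simulated data. Named genes are every called member, the 2 smallest p and the highest mean of each replication-dependent family, all variants, and the called or leading genes of the other lists. Members and lists were chosen with earlier results of these data known. Alternatives were other normalizations, filters, eBayes settings, array weights, averaged clusters, all clusters, a replicate block, thresholds and leaving out each array.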

Additional observations from a re-analysis of the deposited data

How the results depend on the processing

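The number of members called higher was 2 in 11 of the 16 alternatives that refitted the genes. It was 0 with all clusters in the fit, where 0.312% of clusters rose, and 0 to 2 when single arrays were left out. At an unadjusted limma p under 0.05 it was 4, beside 11.7% of all genes. The number called lower was 1 with array weights, where 7.95% of all genes fell, and 0 to 1 with single arrays left out. At an unadjusted limma p under 0.05 it was 1, beside 8.21% of all genes. The share of all genes called in the other refits is not given here. An unchanged count of members can therefore not be set beside it. The replication-dependent median ran from -0.05 to 0.06 with single arrays left out and was -0.01 after a second quantile normalization. The variant median was 0.053 with array weights, 0.039 after a second quantile normalization, and 0.056 to 0.097 with single arrays left out.

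Of the 25 named members, 15 kept their sign in every setting. H2AC17 turned to 0.16 and H3C2 to -0.041 with array weights. H4C3 was -0.011 with array weights and -0.018 after a second quantile normalization, which also gave MACROH2A1 -0.010. With single arrays left out, H2AC17 ran from -0.41 to 0.042, H2AC21 from -0.18 to 0.035, H2BC9 from -0.14 to 0.031, H3C3 from -0.012 to 0.13, H3C1 from -0.27 to 0.037, H3C2 from -0.040 to 0.16, H4C3 from -0.12 to 0.13, H1-10 from -0.12 to 0.083, H3-3B from -0.12 to 0.046 and MACROH2A1 from -0.00048 to 0.093. None of these 10 was called in any of those settings. H2AC15 ran from 0.65 to 1.03 and H2BC14 from 0.49 to 0.71. Over the settings that kept all arrays, their limma adjusted p ran from 0.00505 to 0.125 and from 0.0167 to 0.108.

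The replicate numbers were not taken to pair the arrays. Deviations from the group means correlated across genes with r of -0.01, 0.24 and -0.14 for arrays of the same number. Selamectin array 1 correlated best with untreated array 3 (0.30), and selamectin array 3 with untreated array 1 (0.12). Deviations sum to 0 within each group of 3, so these values cannot settle whether arrays are paired. Whether arrays share a batch in another order was not tested. With the replicate block, 2 members were called higher and 0 lower, without the share of all genes called in that fit beside them. The replication-dependent and variant medians were 0.02 and 0.08 in that fit. Counting H4C14 and H4C15 once, an alternative chosen after seeing the data, left the median at 0.02.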

Other observations

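The 24 clusters that carry several symbols, at least 1 of them a histone, held no call in limma when all clusters were fitted (smallest adjusted p 0.238), with 0 higher and 1 lower at an unadjusted p under 0.05. Their log2 changes ran from -0.27 to 0.07, with a median of -0.02.

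Of the histone genes outside the member rule, 5 had a cluster of their own and none passed in limma, with 0 at an unadjusted p under 0.05. H3-4, a testis H3, had log2 values of 7.68, 7.92 and 8.14 with selamectin, against 7.59, 7.81 and 7.71 untreated, which overlap (change 0.21, limma adjusted p = 0.37). Its highest array was selamectin array 3, as for 27 of the 57 replication-dependent genes and 15% of all genes. H3-5, a further H3.3-like gene, had 11.35, 11.35 and 11.13 with selamectin, against 11.25, 11.03 and 11.08 untreated, and changed by 0.15 (adjusted p = 0.41). H2AP, H2BW1 and H2BW2 changed by 0.06, -0.06 and -0.006.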
